A study of Mus musculus with 6 samples.

Results

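Nuclear receptors are transcription factors, most of them switched by small lipophilic ligands, and the 34 described here are members of the family chosen by name around FXR (Nr1h4), the bile acid receptor, and SHP (Nr0b2), its partner in repression. All 34 symbols were found, each once, among the 48699 genes of the deposited table. The clock receptors Nr1d1 and Nr1d2 and the immediate-early Nr4a genes were not among the 34. The livers were those of C57BL/6 males aged 10 to 12 weeks, which had no food overnight for 8 to 10 hours before sampling. The deposited column names label every library, control and knockout, as chow. The 3 control mice carried both Fxr and Shp as homozygous floxed alleles (Fxrfl/fl Shpfl/fl), and the 3 double knockout mice were hepatocyte-specific Fxr-/- Shp-/-. The Cre driver and the deleted exons are not given in the labels, and whole liver also holds other cells, which by the labels keep both genes. The comparison asks how far the rest of the receptor family differed in livers whose hepatocytes lack this pair.

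In liver, bile acids bind FXR, which pairs with a retinoid X receptor (RXR) on DNA and turns on SHP. SHP has no DNA-binding domain. It binds other receptors, among them LRH-1 (Nr5a2) and HNF4A, and recruits corepressors, which is how bile acids are known to hold down their own synthesis. RXR is also the shared partner of the receptors for oxysterols (LXRs), fatty acids (PPARs), xenobiotics (CAR and PXR), retinoic acid, thyroid hormone and vitamin D, so these receptors draw on 1 common pool.

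Many of these receptors bind the hexamer AGGTCA, and the site of LRH-1 begins with TCAAGG. Both were searched, on both strands, in the 250 bases upstream of each RefSeq start site (build GRCm38.p6). Windows were given for 31 receptors, 50 windows in all, and AGGTCA lay in 9 of them (8 receptors) against 14% of all 32851 windows of that length. The hexamer TCAAGG lay in 6 of the 50 against 12.5% of all. Direct repeats of AGGTCA with 1 or 4 bases between them, and its inverted repeat with 1 base between, the form FXR is known for, lay in 0 of the 50 against 0.0335%, 0.0152% and 0.00609% of all. The windows of the deleted pair and of the 3 other receptors described most closely below are shown, with matches to either hexamer, on either strand, in capitals. Windows that overlap annotated exons are not printed, and of the exon-free windows of Rxra and Esrrg the 1 with a match is shown for each, so these prints do not stand for all starts of those genes. The Nr0b2 window, which ends at the gene's annotated start, holds TCAAGG at 2 places. The Nr1h4, Rxra, Esrrg and Pparg windows lie before starts inside those genes, and the printed Pparg window has no match to either hexamer. The other 2 Pparg windows, nearer the gene's 5′ end, each hold 1 AGGTCA but overlap exons.
Nr0b2, chr4:133553126-133553375, strand +: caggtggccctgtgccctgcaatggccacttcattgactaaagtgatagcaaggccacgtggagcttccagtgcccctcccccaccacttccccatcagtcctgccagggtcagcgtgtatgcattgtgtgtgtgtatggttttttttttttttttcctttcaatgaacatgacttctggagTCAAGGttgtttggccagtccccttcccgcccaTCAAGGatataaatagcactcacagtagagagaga
Nr1h4, chr10:89506659-89506908, strand -: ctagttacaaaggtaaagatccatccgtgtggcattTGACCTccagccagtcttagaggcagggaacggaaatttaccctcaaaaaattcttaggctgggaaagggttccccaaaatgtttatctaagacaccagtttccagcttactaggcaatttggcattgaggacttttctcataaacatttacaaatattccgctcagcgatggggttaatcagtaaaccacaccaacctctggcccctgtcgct
Rxra, chr2:27709042-27709291, strand +: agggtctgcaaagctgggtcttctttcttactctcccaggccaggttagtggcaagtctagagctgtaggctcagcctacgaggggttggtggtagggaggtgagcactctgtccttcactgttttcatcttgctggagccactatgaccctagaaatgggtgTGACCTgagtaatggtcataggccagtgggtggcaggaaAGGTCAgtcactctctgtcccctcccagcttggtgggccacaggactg
Esrrg, chr1:187651991-187652240, strand +: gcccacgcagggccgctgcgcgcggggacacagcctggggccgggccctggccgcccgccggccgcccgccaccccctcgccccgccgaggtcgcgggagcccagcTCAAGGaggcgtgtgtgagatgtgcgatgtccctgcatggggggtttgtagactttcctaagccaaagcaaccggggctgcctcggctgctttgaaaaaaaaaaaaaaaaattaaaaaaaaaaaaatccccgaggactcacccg
Pparg, chr6:115421816-115422065, strand +: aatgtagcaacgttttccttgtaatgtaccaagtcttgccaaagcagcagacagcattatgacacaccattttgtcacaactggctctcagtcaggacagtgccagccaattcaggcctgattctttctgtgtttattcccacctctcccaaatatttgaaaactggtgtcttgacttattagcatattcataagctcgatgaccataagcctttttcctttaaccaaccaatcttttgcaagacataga

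The 6 libraries were of like depth, each corresponding to between 13.19 and 14.14 times 1e6 fragments. Control replicate 3 stood apart: its log expression correlated with the other controls at 0.952 and 0.955, across genes, where those controls correlated with each other at 0.983. With the knockouts, control replicate 3 correlated at 0.956, 0.954 and 0.966, and the other controls at 0.952 to 0.971. It was thus no closer to its own group than to the knockouts. Hepatocyte markers were abundant in each library, and the 8 of them summed to 70344 to 85941 FPKM in control livers and 42843 to 65866 FPKM in knockout livers. That gap between the ranges rests on Alb, albumin, which does not overlap by itself. The other 7 summed to 33336, 42295 and 34384 FPKM in control livers and 33696, 25834 and 31257 FPKM in knockout livers, which overlapped. Of the 8 hepatocyte markers, only 1 had a higher knockout mean. The 7 cholangiocyte markers, led by Spp1 and with Cftr at 0 in at least 1 library, summed to 39.0 to 47.7 FPKM in control livers and 64.0 to 68.6 FPKM in knockout livers. All 8 Kupffer cell and macrophage markers had a higher knockout mean (summed 51.6 to 142 and 93.8 to 239 FPKM). The 5 neutrophil markers summed to 50.7 FPKM in control replicate 3 and to at most 17.7 FPKM elsewhere, and the 6 lymphocyte markers to at most 2.09 FPKM. The part of these differences in the receptor values was not tested.

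Both deleted genes fell, and no other receptor of the 34 passed the test. Values are FPKM (fragments scaled to transcript length and library size), which can be compared between genes, and differences are on the log2(FPKM + 1) scale, with limma p-values adjusted over the 11810 genes that averaged 0.5 FPKM or more. Of the 34 receptors, 30 were tested. The 2 called lower, Nr0b2 and Nr1h4, stand against 0.144% of all tested genes called lower, and 0 receptors were called higher against 0.169% of all. In total 0.313% of the tested genes were called. Without adjustment, 5 receptors had a higher and 4 a lower limma p under 0.05, against 6.97% and 7.98% of all tested genes. Nr0b2 measured 14.7, 17.6 and 18.7 FPKM in control livers and 0.216, 0.0734 and 0.293 FPKM in knockout livers (log2 difference -3.91, SE 0.16, limma adjusted p = 0.000277). Its mean was 87.5-fold higher in controls, and the knockout values correspond to roughly 3.4, 1.2 and 4.6 fragments. Nr1h4 measured 59.8, 71.8 and 68.0 FPKM in control livers and 21.1, 15.5 and 22.0 FPKM in knockout livers (-1.73, SE 0.17, limma adjusted p = 0.0172). The lowest control was above the highest knockout for both genes, and 29.4% of the Nr1h4 signal remained. As the deleted exons are not given, that remainder cannot be assigned to a cell type or to intact transcripts. In whole liver, fewer cells of a type and less RNA per cell cannot be told apart. Leaving out control replicate 3 left Nr1h4 past the threshold (limma adjusted p = 0.0184). Leaving out any of the remaining 5 libraries ended its call (0.0641 to 0.157), with the difference between -1.58 and -1.82. The Nr0b2 call was kept in each case (0.000997 to 0.00858).

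**Figure D1:**
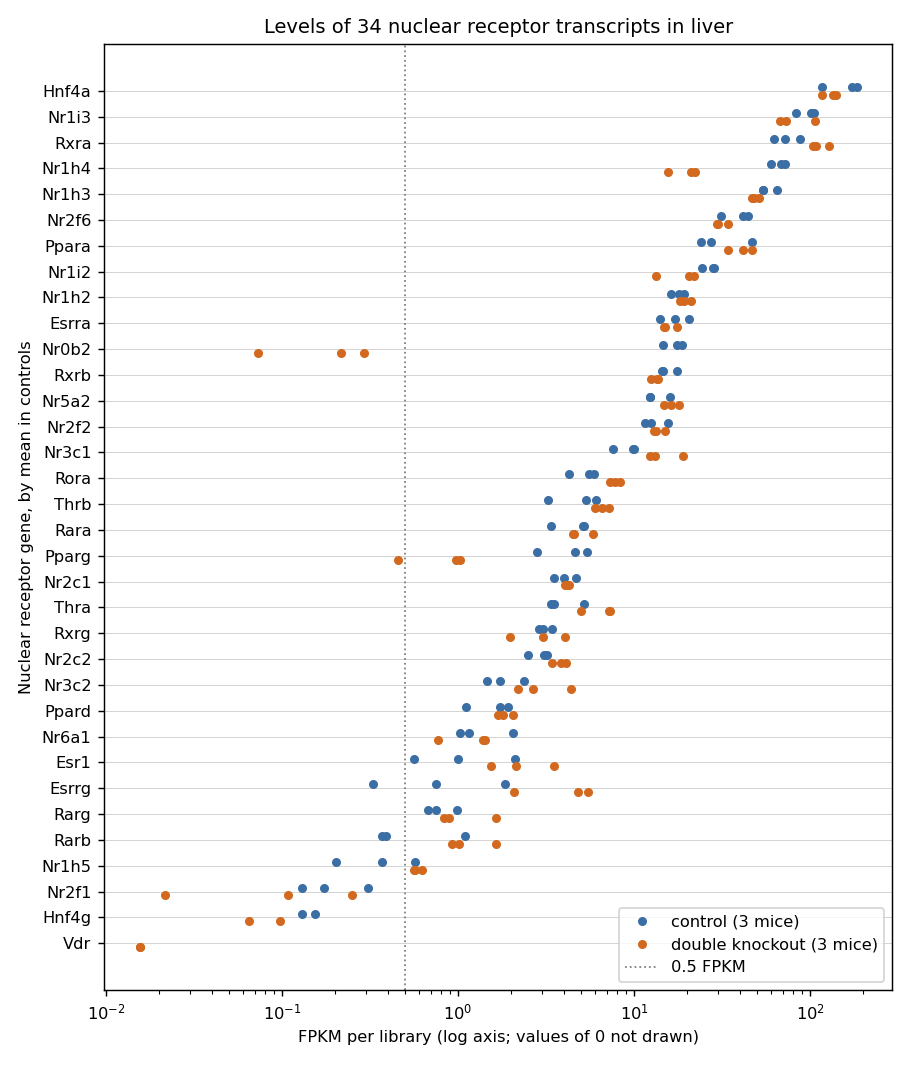
FPKM of each of the 34 receptors in each library on a log axis, ordered by the control mean, with control mice in blue and double knockout mice in orange. Hnf4a leads in both groups, and Nr1h4, Nr0b2 and Pparg are the genes whose knockout points lie well to the left of the control points. The dotted line marks 0.5 FPKM, and values of 0 are not drawn.

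The receptors spanned a wide range of levels. In the controls 14 had a mean of at least 10 FPKM and 5 of at least 50 FPKM, where the median tested gene stood at 6.37 FPKM. The order was led by Hnf4a (158 ± 35.4 FPKM), which sets hepatocyte identity, ahead of Nr1i3, or CAR (96.3 ± 11.8), Rxra (73.9 ± 12.9), Nr1h4 (66.5 ± 6.15) and Nr1h3, or LXR-alpha (57.6 ± 6.53; SD, n = 3 each). Hnf4a lay above the others in each control, while the values of Nr1i3, Rxra, Nr1h4 and Nr1h3 overlapped with those of their neighbours in that order. In the knockouts Hnf4a (130 ± 11.4 FPKM) was followed by Rxra (114 ± 13.0; SD, n = 3 each), and their values overlapped. Nr1h4 stood at place 4 in controls and 7 in knockouts, and Nr0b2 at places 11 and 31 of 34.

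At the other end, 4 receptors lay below the filter and were not tested. Vdr, the vitamin D receptor, was listed at 0 in all controls and at no more than 0.0156 FPKM, about 1 fragment, in a knockout. Hnf4g, a paralog of Hnf4a, reached 0.153 FPKM, and Nr2f1 (COUP-TFI) 0.309 FPKM, about 13.6 fragments. Nr1h5, a relative of FXR that responds to lanosterol, was at 0.369, 0.566 and 0.204 FPKM in control livers and at 0.570, 0.561 and 0.621 FPKM in knockout livers. The Nr1h5 values overlapped, so no gain in this relative was detectable at a depth of 7.9 to 24.6 fragments per library.

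Of the receptors that were not deleted, Pparg lay lowest in the knockouts relative to the controls. PPAR-gamma is the adipogenic fatty acid receptor and is known to promote fat storage when its level is raised in hepatocytes. The gene (ENSMUSG00000000440.12, chromosome 6, 115360951 to 115490399, GRCm38) measured 5.39, 2.81 and 4.61 FPKM in control livers and 0.455, 0.979 and 1.02 FPKM in knockout livers. The lowest control was above the highest knockout, a mean 5.22-fold higher in controls. The log2 difference was -1.52 (SE 0.24, 95% interval -2.08 to -0.95), and it did not pass the threshold (limma adjusted p = 0.0691). It passed with library weights (limma adjusted p = 0.0233), where 4.77% of all tested genes were called, and its adjusted p under the other alternatives reached 0.262. In the authors' deposited table Pparg was significant (q = 0.00121), as were 4.58% of its tested genes. Stellate cells and fibroblasts also express Pparg. The summed FPKM of 8 of their markers lay between 104 and 197 in the controls and 104 and 192 in the knockouts. Whether cell numbers bear on the Pparg difference was not tested.

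Its relatives stood closer to their control levels, a contrast that was not tested. Ppara, the fasting receptor of fatty acid oxidation, stood at 27.5, 24.1 and 47.0 FPKM in control livers and 34.2, 41.3 and 46.8 FPKM in knockout livers (log2 difference 0.35, 95% interval -0.26 to 0.96, limma adjusted p = 0.55). The high control was replicate 3, without which the difference was 0.63. Ppard, a broadly expressed fatty acid receptor, was between 1.11 and 2.04 FPKM in all 6 libraries (0.15). The LXRs sense oxysterols. Nr1h3 stood at 53.9, 53.7 and 65.1 FPKM against 51.4, 46.5 and 48.1 FPKM, without overlap but by little (-0.23, 95% interval -0.57 to 0.10). Nr1h2, or LXR-beta, was at 17.7 ± 1.51 and 19.5 ± 1.32 FPKM (SD, n = 3 each), with overlapping values.

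Rxra, the main RXR of hepatocytes, was higher in each knockout than in any control. It measured 87.7, 71.9 and 62.1 FPKM in control livers and 104, 108 and 128 FPKM in knockout livers, a mean ratio of 1.54 (log2 difference 0.62, SE 0.18, 95% interval 0.21 to 1.03, limma adjusted p = 0.2). The difference did not pass the threshold and lay between 0.46, with the length and GC trend removed, and 0.81, under quantile normalization. Rxrb was at 15.5 ± 1.82 and 13.2 ± 0.614 FPKM and Rxrg at 3.12 ± 0.263 and 3.02 ± 1.06 FPKM (SD, n = 3 each), with log2 differences of -0.21 and -0.07. None of the 3 RXRs passed the threshold, and their differences were not of 1 sign.

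The ratio of partners to RXRs did not overlap between the groups, but its partners include Nr1h4, so the deletion itself lowers it. The RXR sum, its denominator, was also higher in each knockout than in any control. How much of the gap comes from each was not tested. Summed, the 3 RXR transcripts came to 108, 89.9 and 79.4 FPKM in control livers and 121, 125 and 144 FPKM in knockout livers. Rxra made up 78.3% to 80.9% of the sum in the controls and 86.2% to 89.2% in the knockouts. The 15 partners, from FXR and the LXRs to the vitamin D receptor, summed to 295, 318 and 343 FPKM in control livers and 273, 235 and 251 FPKM in knockout livers. Without Nr1h4 the other 14 partners summed to 235 to 275 and 219 to 252 FPKM, which overlapped. The ratio of partner to RXR transcripts was 2.72, 3.54 and 4.32 in the controls and 2.26, 1.88 and 1.74 in the knockouts. It was not computed without Nr1h4. Nr1h4 made up 19.8% to 22.6% of the partner sum in controls and 6.62% to 8.78% in knockouts, a share that the deletion itself lowers. Over all 34 receptors the mean sum was 696 FPKM in control livers and 632 FPKM in knockout livers. Without the deleted pair it was 634, 619 and 586 FPKM in control livers and 624, 574 and 638 FPKM in knockout livers, which overlapped. These sums were chosen with the values known and carry no test.

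**Figure D2:**
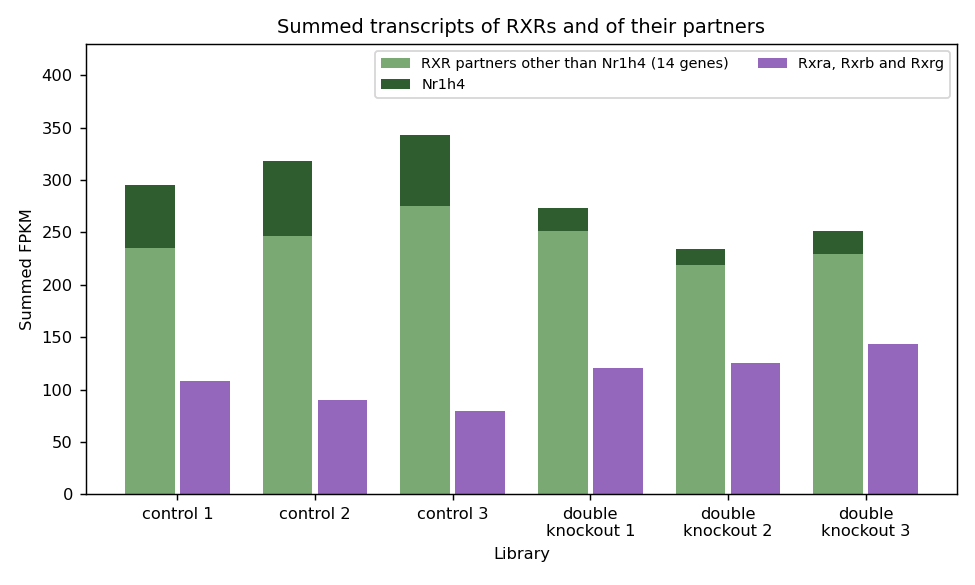
Summed FPKM in each library of the RXR partners (green, with Nr1h4 in dark green) and of the 3 RXRs (purple). The partner bar is between 2.72 and 4.32 times the RXR bar in the controls and between 1.74 and 2.26 times in the double knockouts. The partner bar includes Nr1h4, so the deletion itself lowers this ratio. The RXR bar is also higher in each double knockout than in any control.

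Both xenobiotic receptors had negative differences, and 0 passed the threshold. Nr1i2, or PXR, which responds to drugs and to toxic bile acids, measured 27.9, 28.4 and 24.2 FPKM in control livers and 20.5, 13.3 and 22.0 FPKM in knockout livers. Its groups did not overlap, and the log2 difference of -0.53 (95% interval -1.01 to -0.06) did not pass the threshold (limma adjusted p = 0.298). Nr1i3, its relative for drug and bilirubin clearance, stood at 82.8, 101 and 105 FPKM against 106, 73.1 and 67.2 FPKM. Double knockout replicate 1 was the highest of the 6 for Nr1i3, so those groups overlapped (-0.25, 95% interval -0.73 to 0.24).

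Among the receptors for retinoic acid and thyroid hormone all 5 tested members had a positive difference, and 0 passed the threshold. Thra, a broadly expressed thyroid hormone receptor, was at 5.19, 3.50 and 3.36 FPKM in control livers and 5.01, 7.18 and 7.29 FPKM in knockout livers (log2 difference 0.58, limma adjusted p = 0.273). Thrb, the main thyroid hormone receptor of hepatocytes, was at 4.87 ± 1.48 and 6.58 ± 0.606 FPKM (SD, n = 3 each; 0.40). Of the retinoic acid receptors, Rara was at 4.57 ± 1.02 and 4.96 ± 0.768 FPKM, Rarg at 0.800 ± 0.163 and 1.123 ± 0.457 FPKM and Rarb at 0.615 ± 0.410 and 1.19 ± 0.389 FPKM (SD, n = 3 each). Values of these 5 genes overlapped between the groups. Without control replicate 3, Rara turned to -0.05, and 4 of the 5 remained positive.

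The steroid and oestrogen-related receptors held the highest difference of the 30 tested. Esrrg (chromosome 1, 187608791 to 188214885, GRCm38), an orphan receptor of oxidative metabolism, measured 0.753, 0.328 and 1.85 FPKM in control livers and 5.49, 2.07 and 4.80 FPKM in knockout livers. The lowest knockout was just above control replicate 3, and the mean ratio was 4.21 (log2 difference 1.37, SE 0.37, 95% interval 0.52 to 2.23, limma adjusted p = 0.186). Esrrg passed with library weights (limma adjusted p = 0.0238), and its adjusted p under the other alternatives reached 0.504. It was 0.0698 in limma without control replicate 3, and the authors' deposited table called it higher (q = 0.00121). Its close relative Esrra, a partner of the PGC-1 coactivators, was at 17.3 ± 3.27 and 15.8 ± 1.51 FPKM (SD, n = 3 each; log2 difference -0.12, and 0.01 without control replicate 3).

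Nr3c1, the glucocorticoid receptor, measured 9.88, 7.55 and 9.97 FPKM in control livers and 12.4, 13.1 and 19.0 FPKM in knockout livers, without overlap (log2 difference 0.63, SE 0.20, limma adjusted p = 0.238). The mineralocorticoid receptor Nr3c2 was at 1.73, 1.45 and 2.37 FPKM against 2.18, 2.66 and 4.40 FPKM, and the oestrogen receptor Esr1 at 0.995, 0.558 and 2.10 FPKM against 1.53, 2.13 and 3.49 FPKM. In both of these, control replicate 3 lay above the lowest knockout. The authors' deposited table called Nr3c1 (q = 0.0385) and Esr1 (q = 0.0137) higher, and not Nr3c2 (q = 0.136). In all, 6 of the 31 receptors tested in the authors' deposited table were significant there, 3 higher (Esrrg, Esr1 and Nr3c1) and 3 lower (Nr1h4, Nr0b2 and Pparg), against 2.85% and 1.73% of its tested genes. Both analyses rest on the same 6 libraries.

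Nr5a2 and Hnf4a, which are among the receptors through which SHP is known to repress, did not pass the limma threshold. Nr5a2 was at 12.3, 12.3 and 15.9 FPKM in control livers and 18.03, 14.8 and 16.1 FPKM in knockout livers (log2 difference 0.26, 95% interval -0.12 to 0.63). Hnf4a was at 184, 172 and 118 FPKM against 134, 118 and 139 FPKM (-0.25, 95% interval -0.73 to 0.22), and control replicate 3 stood with the knockouts. Within a library, the Hnf4a level was 2.10, 2.39 and 1.89 times that of Rxra in the controls and 1.29, 1.09 and 1.09 times in the knockouts. This ratio carries no test. Its denominator, Rxra, was higher in each knockout than in any control, while the Hnf4a values overlapped. Rora, a receptor that competes with the clock repressors on shared sites, measured 5.57, 5.93 and 4.26 FPKM in control livers and 7.34, 7.79 and 8.30 FPKM in knockout livers, without overlap (0.50, SE 0.16, limma adjusted p = 0.234). The Rora difference was 0.29 with the length and GC trend removed. Nr6a1, the germ cell nuclear factor, was at 1.41 ± 0.561 and 1.19 ± 0.371 FPKM (SD, n = 3 each).

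The testicular receptors and COUP-TFs, mostly orphan repressors, had small differences. Nr2c1 was between 3.51 and 4.65 FPKM and Nr2f2 (COUP-TFII), also abundant in venous endothelium, between 11.6 and 15.6 FPKM in all 6 libraries. Nr2c2 was at 2.93 ± 0.384 and 3.77 ± 0.354 FPKM (log2 difference 0.28) and Nr2f6 at 39.1 ± 7.12 and 31.3 ± 2.48 FPKM (-0.30; SD, n = 3 each). The groups overlapped for Nr2f6 and not for Nr2c2. The summed FPKM of 8 sinusoidal endothelial markers was 63.6 to 79.2 in the controls and 42.4 to 85.8 in the knockouts.

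**Figure D3:**
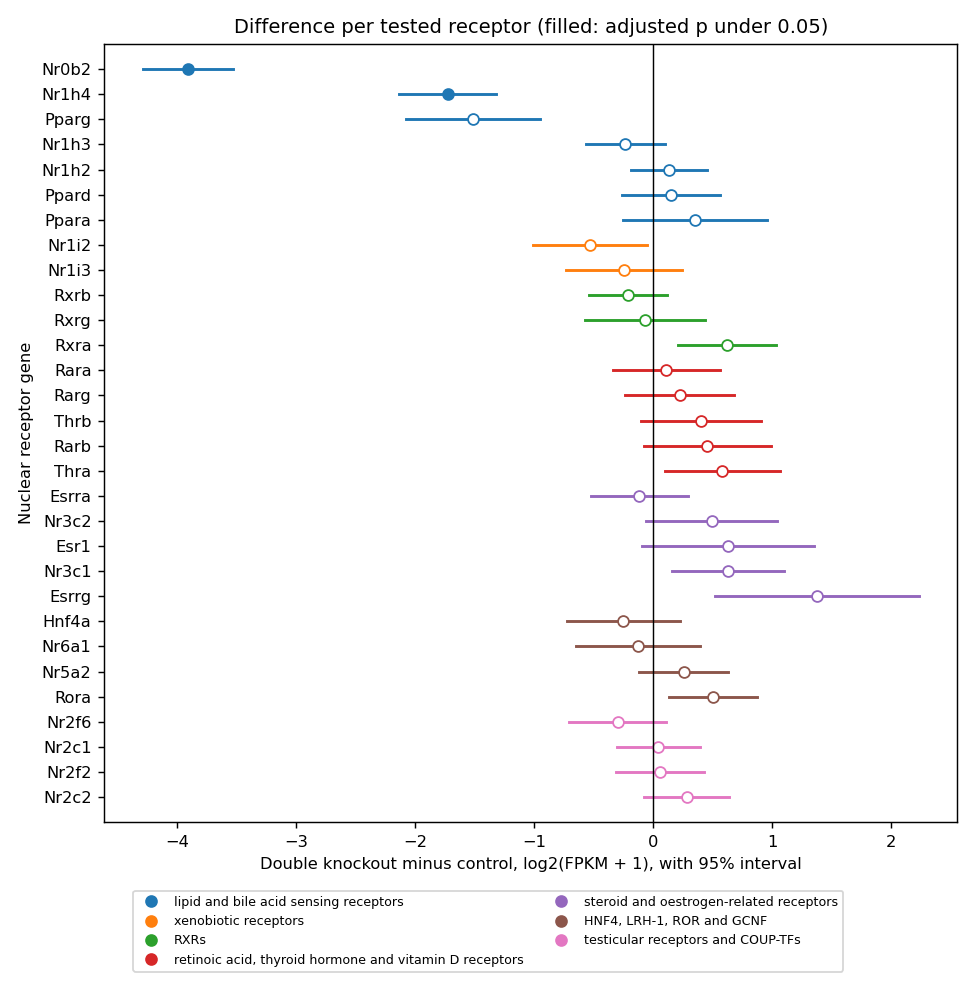
Difference (double knockout less control, log2(FPKM + 1) units) with its 95% interval (not adjusted for multiple tests) for the 30 tested receptors, coloured by role. Filled points, Nr0b2 and Nr1h4, passed the threshold, and most other points lie within 0.5 of zero.

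As a group, the 28 tested receptors other than the deleted pair had 18 positive and 10 negative differences with a median of 0.14, where all tested genes had a median of -0.01 and 49.2% positive. Their groups did not overlap in 5 higher (Rxra, Nr3c1, Rora, Esrrg and Nr2c2) and 4 lower (Pparg, Nr1i2, Nr1h3 and Rxrb), where 11.3% and 11.6% of all tested genes, 22.9% in all, did not overlap. For 20 of the 30 receptors the 95% interval lay between -1 and 1, and 20 had a difference under 0.5 in size. Control replicate 3 was the highest control for 14 of the 30 and the lowest for 13, and the highest of all 6 libraries for 7 and the lowest for 9. Without it 0 receptors were called higher and 2 lower, as with it, while the count over all genes went from 20 higher and 17 lower to 133 and 77, or 1.78% of the tested genes.

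**Figure D4:**
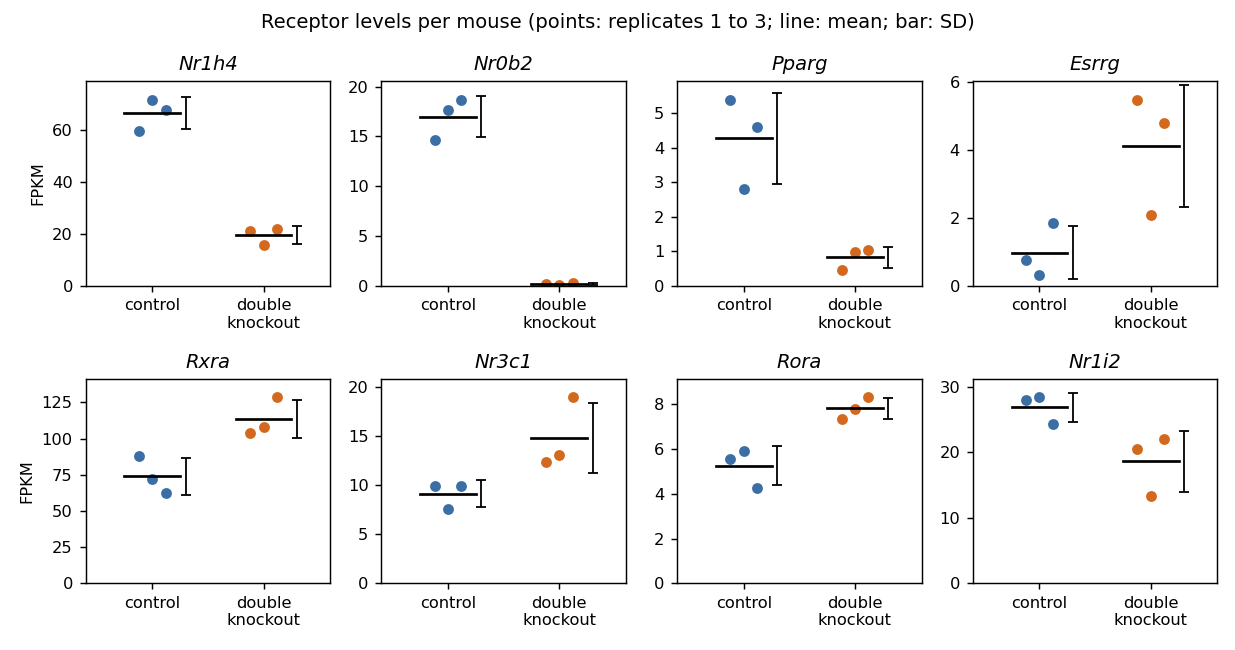
FPKM per mouse of 8 receptors on linear axes from 0; points are replicates 1 to 3 from left to right, the line is the mean and the bar the SD. All 8 were taken from the receptors whose groups do not overlap, so the panels do not stand for the other receptors. Over all tested genes, 22.9% did not overlap. Only Nr1h4 and Nr0b2 passed the threshold.

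Of the coregulators, through which the receptors act, 0 passed the limma threshold. Of 15 corepressor genes 11 had a positive difference (median 0.13) and of 16 coactivators 13 (median 0.17), with 0 called by limma in either direction. The share of positive differences over all tested genes was 49.2%. Without adjustment, 1 corepressor and 2 coactivators had a limma p under 0.05, all higher. The shares over all tested genes were 6.97% higher and 7.98% lower. The authors' deposited table called 0 corepressors and 1 coactivator, Ncoa2 (higher, q = 0.0428). The most abundant corepressors were Cops2 (30.1 ± 3.95 and 32.3 ± 7.08 FPKM) and Sin3b (31.7 ± 3.22 and 28.7 ± 4.60 FPKM). The most abundant coactivators were Kat2b (21.6 ± 3.71 and 24.1 ± 2.404 FPKM) and Prmt1 (14.1 ± 1.68 and 12.9 ± 1.08 FPKM; SD, n = 3 each). Of 15 receptors outside the 34, 5 were tested, limma called 0, and 1 had an unadjusted limma p under 0.05. By the authors' deposited table, 1 of them was called lower, the immediate-early Nr4a1 (q = 0.0172). Nr4a1 measured 1.53, 0.486 and 54.5 FPKM in control livers and 3.80, 3.07 and 16.8 FPKM in knockout livers, so its control mean rests on replicate 3 and its log2 difference is 0.25. The most abundant of them were the clock repressors Nr1d1 (26.8 ± 3.21 and 31.5 ± 3.66 FPKM) and Nr1d2 (19.9 ± 16.1 and 19.2 ± 5.47 FPKM; SD, n = 3 each).

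Among target genes of PPARA, the LXRs and the thyroid hormone receptors limma made 5 calls. Over all tested genes it called 0.313%, and 49.2% had a positive difference. Of 24 PPARA targets 19 had a negative difference (median -0.50), and 3 fell: the thiolase Acaa1b (log2 difference -1.77, limma adjusted p = 0.0155), the omega-hydroxylase Cyp4a14 (-2.22, limma adjusted p = 0.0170) and the thioesterase Acot1 (-2.45, limma adjusted p = 0.0358). Levels of Acaa1b were 689 ± 83.6 (control) and 200.1 ± 10.1 (knockout) FPKM, with Cyp4a14 at 526 ± 55.1 and 114 ± 27.5 FPKM, and Acot1 at 61.9 ± 16.3 and 10.8 ± 4.27 FPKM (SD, n = 3 each). Ppara itself had a positive difference that did not pass. Of 10 LXR targets 9 had a positive difference (median 0.58), and 1 rose, the sterol transporter subunit Abcg8 (log2 difference 1.44, limma adjusted p = 0.0219). Its level was 25.6 ± 3.44 FPKM in control livers and 71.0 ± 7.42 FPKM in knockout livers (SD, n = 3 each). Of 5 thyroid hormone receptor targets, Me1, malic enzyme, fell (-1.85, limma adjusted p = 0.0490), and 3 had a positive difference. The authors' deposited table called 9 PPARA targets lower and 1 higher, and 4 LXR targets higher and 0 lower. It called 1 thyroid hormone target higher and 1 lower. Over all genes tested in it, 2.85% were called higher and 1.73% lower. The PPARA and LXR lists were chosen with results of these data known, so their directions are not independent evidence. None of the 5 passed without a filter on low values (limma adjusted p = 0.0654 to 0.115). Me1 also missed the threshold with a pseudocount of 0.1 (0.0524) and with no mean-variance trend (0.0546). The Me1 and Acot1 calls were lost under quantile normalization (limma adjusted p = 0.0547 and 0.0589) and with the length and GC trend removed (0.0621 and 0.0652). Leaving out control replicate 1 or 2 or any 1 knockout ended all 5 calls (0.0641 to 0.243).

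Of the listed genes that FXR activates or that are repressed through FXR and SHP, 0 were called by limma and 0 by the authors' deposited table. An unadjusted limma p under 0.05 was held by 1, an FXR-activated gene, and by 14.9% of all tested genes. Of 10 tested genes that FXR activates, 4 had a positive and 6 a negative difference (median -0.10). The most abundant were Fetub (441 ± 93.3 and 409 ± 51.4 FPKM) and the apolipoprotein Apoc2 (528 ± 379 and 229 ± 118 FPKM; SD, n = 3 each). Of 6 genes repressed through FXR and SHP, 3 were positive (median -0.02), with Apoa1 at 10685 ± 2009 and 8235 ± 1357 FPKM and Apoc3 at 5455 ± 1031 and 4289 ± 833 FPKM (SD, n = 3 each). Control replicate 3 decided 2 of these genes, chosen after their values were seen. The bile salt export pump Abcb11 stood at 144, 172 and 66.2 FPKM in control livers and 74.3, 61.6 and 60.3 FPKM in knockout livers, and was called lower without that library (log2 difference -1.26, limma adjusted p = 0.0260). Cyp7a1, the first enzyme of bile acid synthesis, stood at 28.6, 36.2 and 181 FPKM against 102, 118 and 126 FPKM, and was called higher without it (1.80, limma adjusted p = 0.0113).

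Of the targets of the remaining receptors 0 passed the limma threshold. Without adjustment, a limma p under 0.05 was held by 2 higher and 1 lower CAR and PXR targets and 3 higher glucocorticoid receptor targets. It was also held by 1 lower HNF4A target and 0 retinoic acid targets. Over all tested genes, 6.97% were higher and 7.98% lower at that p. The 2 higher CAR and PXR targets, Cyp2b9 and Cyp2b13, passed the filter only through the knockouts. In control livers they reached at most 0.195 and 0 FPKM, so their p-values are not independent support. Of 14 CAR and PXR targets 6 were positive (median -0.07), with the P450s Cyp3a11 at 2437 ± 201 and 2746 ± 731 FPKM and Cyp2c29 at 767 ± 97.5 and 692 ± 129 FPKM (SD, n = 3 each). Of 12 glucocorticoid receptor targets 9 were positive (median 0.27), with Pck1, a gluconeogenic enzyme, at 1491 ± 247 and 1478 ± 435 FPKM and the metallothionein Mt1 at 1026 ± 727 and 2664 ± 804 FPKM (SD, n = 3 each). By the authors' deposited table, Cyp2b9 was called higher (q = 0.035) and Cyp2c55 lower (q = 0.0407) among the CAR and PXR targets, and Mt1 and Mt2 (q = 0.00121 each) and Igfbp1 (q = 0.0161) higher among the glucocorticoid receptor targets. In limma, Igfbp1, chosen after its values were seen, had a log2 difference of 2.27 (adjusted p = 0.32) and was called higher without control replicate 3 (3.48, limma adjusted p = 0.0153). That table called 0 HNF4A and 0 retinoic acid targets. Of 3 tested retinoic acid targets 2 were positive (median 0.11), with the retinaldehyde reductase Dhrs3 at 80.8 ± 11.5 and 78.6 ± 2.29 FPKM and the retinol-esterifying enzyme Lrat at 1.85 ± 0.936 and 2.38 ± 1.05 FPKM (SD, n = 3 each). All 9 HNF4A targets were negative (median -0.28), where 49.2% of all tested genes were positive. The Apob difference was only -0.0015. Among the 9 were Apoa2 (19300 ± 3999 and 14657 ± 2960 FPKM) and transferrin, Trf (9840 ± 1727 and 9005 ± 1530 FPKM; SD, n = 3 each). Trf turned to 0.15 under quantile normalization. Ttr and Trf are also among the 8 hepatocyte markers, all of which had a negative difference too (median -0.40).

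**Figure D5:**
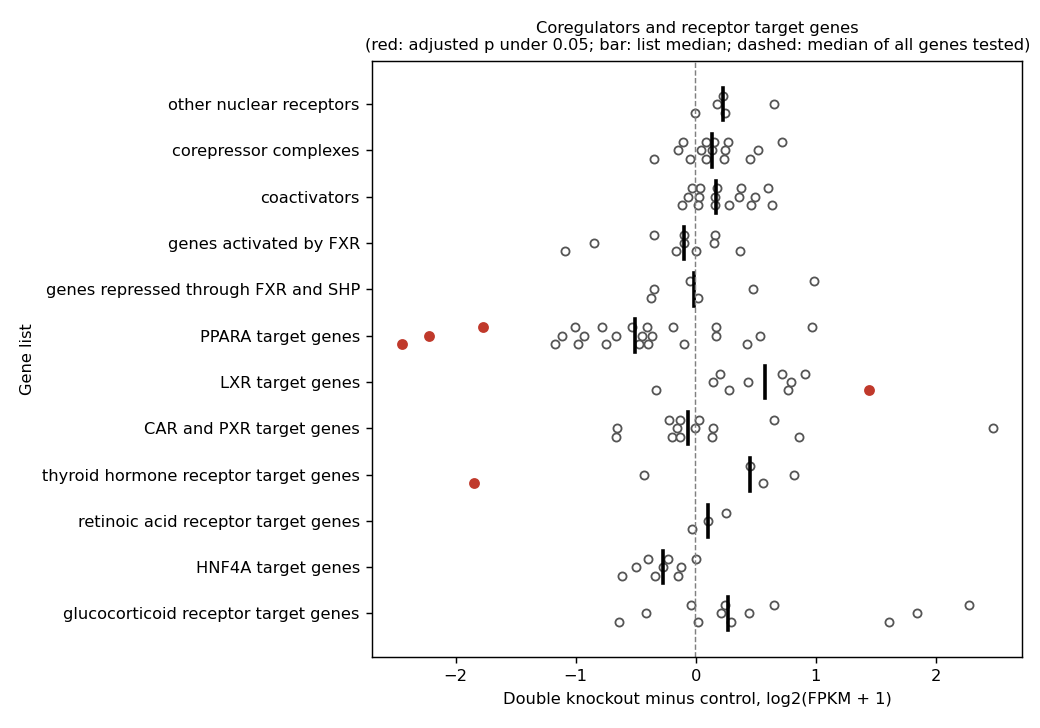
Difference (double knockout less control, log2(FPKM + 1) units) of each tested gene in 12 lists of coregulators and receptor targets; the black bar is the list median and the dashed line the median of all tested genes. Red points are the 5 genes called by limma, 3 of PPARA, 1 of the LXRs and 1 of the thyroid hormone receptors.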

How the data were processed

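Hepatic RNA of 3 control and 3 double knockout mice was sequenced from stranded mRNA libraries, per the labels' protocols. Build GRCm38 and the programs STAR 2.4.2a, Cuffdiff 2.2.1, Picard 1.119, Trimmomatic and bcl2fastq 2.17.1.14 are listed per the submitters' processing notes, with no settings. Annotation, handling of shared reads and strand use were not given in the sources used here. For each gene and library the authors deposited FPKM, and also a comparison with group FPKM, p-values and q-values in Cuffdiff's layout, per the file headers. Columns were matched to samples by genotype word and replicate number; 0 other columns were present. GENCODE M21 gave positions and lengths for 48343 of the identifiers.

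FPKM are not counts, so log2(FPKM + 1) was fitted with limma 3.58.1 in R 4.3.3 (mean-variance trend, Benjamini-Hochberg adjustment over genes averaging 0.5 FPKM or more, threshold 0.05), checked on simulated data. The scale understates differences of low genes. Fragments were estimated from the smallest FPKM steps and the longest annotated transcript, and are approximate. Each library was taken as 1 mouse; p-values measure only the spread between these libraries. With 3 against 3, an exact permutation test cannot go below 0.1. The members and lists were chosen with earlier results of these data known. All 34 receptors are named, and of each list up to 4 called genes or else the 2 most abundant. In the retinoic acid target list 1 gene is not reported here, and that list's counts leave it out. The alternatives were a pseudocount of 0.1 or 0.25, a filter of 2 FPKM or none, quantile normalization, median-ratio scaling, removal of the length and GC trend, no mean-variance trend, library weights, each library left out, and a replicate block.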

Additional observations from a re-analysis of the deposited data

How the results depend on the processing

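Of 475 receptor values recomputed under the 16 alternatives, 457 kept their direction and their side of the threshold. Direction changed for 10, all small log2 differences. Nr2c1 was -0.0271 with quantile normalization, Rxrg 0.0030 with the length and GC trend removed and Rara -0.0461 with library weights. With 1 library left out, Nr2c1 ranged from -0.0370 to 0.1257, Rxrg from -0.2500 to 0.1382, Rara from -0.0527 to 0.1945, Nr2f2 from -0.0256 to 0.1766, Esrra from -0.2467 to 0.0131 and Nr6a1 from -0.2397 to 0.0576. Nr1h4 was not called without a filter (limma adjusted p = 0.0654), where 1 receptor, Nr0b2, was lower. With library weights, 1 receptor was higher (Esrrg). Leaving out 1 library gave 1 to 2 receptors lower and 0 higher.

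Over all genes, 20 higher and 17 lower became 0 and 2 without a filter, 326 and 237 with library weights, and 0 to 133 higher and 2 to 77 lower when 1 library was left out, the highest counts without control replicate 3. There were 13 higher with a pseudocount of 0.1 and 12 higher with the length and GC trend removed. Without a filter more genes were tested, 19705; the other causes were not tested. The median of all genes moved by less than 0.1 under each scaling. Deviations of same-numbered libraries correlated across genes at 0.22, -0.075 and 0.301, and those of differently numbered libraries at -0.321 to 0.254. With 3 libraries per group, these values cannot decide whether the numbers pair the mice. The replicate block gave 27 higher and 23 lower genes, 30 of the original 37 among them, and 2 receptors lower.

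Among other named genes, quantile normalization turned Fetub (0.163), Cyp2c29 (0.0484), Dhrs3 (0.1618) and Trf (0.1517), and removing the length and GC trend turned Fetub (0.0385) and Dhrs3 (0.0236). With 1 library left out, Nr1d2 ranged from -0.1317 to 0.7725, Dhrs3 from -0.1503 to 0.0406, Fetub from -0.2136 to 0.0702, Pck1 from -0.2547 to 0.1754, Cyp3a11 from -0.0470 to 0.3468 and Cops2 from -0.0848 to 0.1887. Depth limits Vdr, Hnf4g, Nr2f1 and the knockout values of Nr0b2, which rest on few fragments.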
